A study of Homo sapiens with 2 samples.

Results

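Kinesins are motor proteins that walk along microtubules or take their ends apart, using ATP. Transport kinesins carry vesicles, organelles and ciliary cargo through the cytoplasm, whereas mitotic kinesins build the spindle, move chromosomes and finish cell division. Transcripts of the mitotic kinesins accumulate in cells that approach division, so in a dividing line such as HepG2 both classes are transcribed side by side.

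The kinesin genes were taken by symbol: KIF or KIFC followed by a number, together with the associated protein gene KIFAP3 and the light chain genes KLC1, KLC2 and KLC4. This gave 36 of the 11589 gene symbols in the expression table, and 131 of its 34714 transcripts. Of the 36 genes, 12 are mitotic kinesins (KIF2C, KIF4A, KIF11, KIF14, KIF15, KIF18A, KIF18B, KIF20A, KIF20B, KIF22, KIF23 and KIFC1) and 24 are the others. KIF1BP met the symbol rule, although its product is a binding protein of kinesins and no motor.

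The cells were HepG2, a line grown from a human liver cancer. RNA was sequenced after 8 h of fluid shear stress (FSS), in which a flowing liquid drags on the cell surface, and after culture without flow (static), to see how flow alters gene expression. Both groups grew in DMEM with fetal bovine serum at passage 10 to 15, and no allele or other agent was named for either. There was 1 FSS library and 1 static library, and each was a mix of 3 cultures of this single line, so the spread between cultures cannot be measured and no p-value is given. Expression was given as FPKM, the sequenced fragments of a transcript scaled by its length and by the mapped fragments of the library, and the read depth behind it is unknown. A gene's value is the sum over its listed transcripts, and a difference is given as log2 of FSS FPKM + 1 over static FPKM + 1, a scale that understates the change of low genes. Genes past 1.5-fold on that scale were counted.

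A negative ratio was common, since the median over the 11221 genes that reached 0.5 FPKM in either library was -0.25, with library sums of 323352 FPKM for FSS and 325712 FPKM for static cells. Ratios were therefore also centred, by taking off -0.23, the median where a gene reached 5 FPKM. GAPDH, a glycolytic enzyme, had 566 FPKM in FSS and 499.5 FPKM in static cells, and ACTB, cytoplasmic actin, had 83.0 FPKM in FSS and 77.4 FPKM in static cells. Of 17 markers of hepatocytes and HepG2 cells, 3 were listed: KRT8 at 202 FPKM in FSS and 302 FPKM in static cells, KRT18 at 275 FPKM in FSS and 265 FPKM in static cells, and FOXA1 at 7.41 FPKM in FSS and 5.69 FPKM in static cells. The other markers, ALB, AFP and HNF4A among them, were not analysed here, so the line was checked only against these epithelial and endodermal genes. Of 5 fibroblast markers 3 were listed, which summed to 12.8 FPKM in FSS and 39.9 FPKM in static cells. COL1A1 was at 5.15 FPKM in FSS and 28.0 FPKM in static cells, and LUM at 6.71 FPKM in FSS and 11.9 FPKM in static cells. DCN was at 0.907 FPKM in FSS and listed at 0 in static cells. Of 5 endothelial markers CDH5 was listed, at 0.634 FPKM in FSS and 0.818 FPKM in static cells, and of 5 leukocyte markers CD68, at 5.22 FPKM in FSS and 1.56 FPKM in static cells. The rest of these markers were not analysed here, and the part of such differences in the kinesin values was not tested.

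The mitotic kinesins were lower in FSS than in static cells. All 12 had ratios below 0 and also below the centre, 8 of the 12 were at least 1.5-fold lower and 0 were higher, and their median log2 ratio was -0.77. Across all genes tested, 29.5% were at least 1.5-fold lower and 10.5% higher. After centring, 5 of the 12 were lower (KIF15, KIF20A, KIF18A, KIFC1 and KIF11) and 0 higher, with a median of -0.53, beside 17.9% lower and 17.8% higher across all genes. Summed over the 12 genes, the level was 190 FPKM in FSS and 332 FPKM in static cells, a ratio of 0.571. In RNA of a whole culture, fewer dividing cells and less RNA per dividing cell cannot be told apart.

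**Figure D1:**
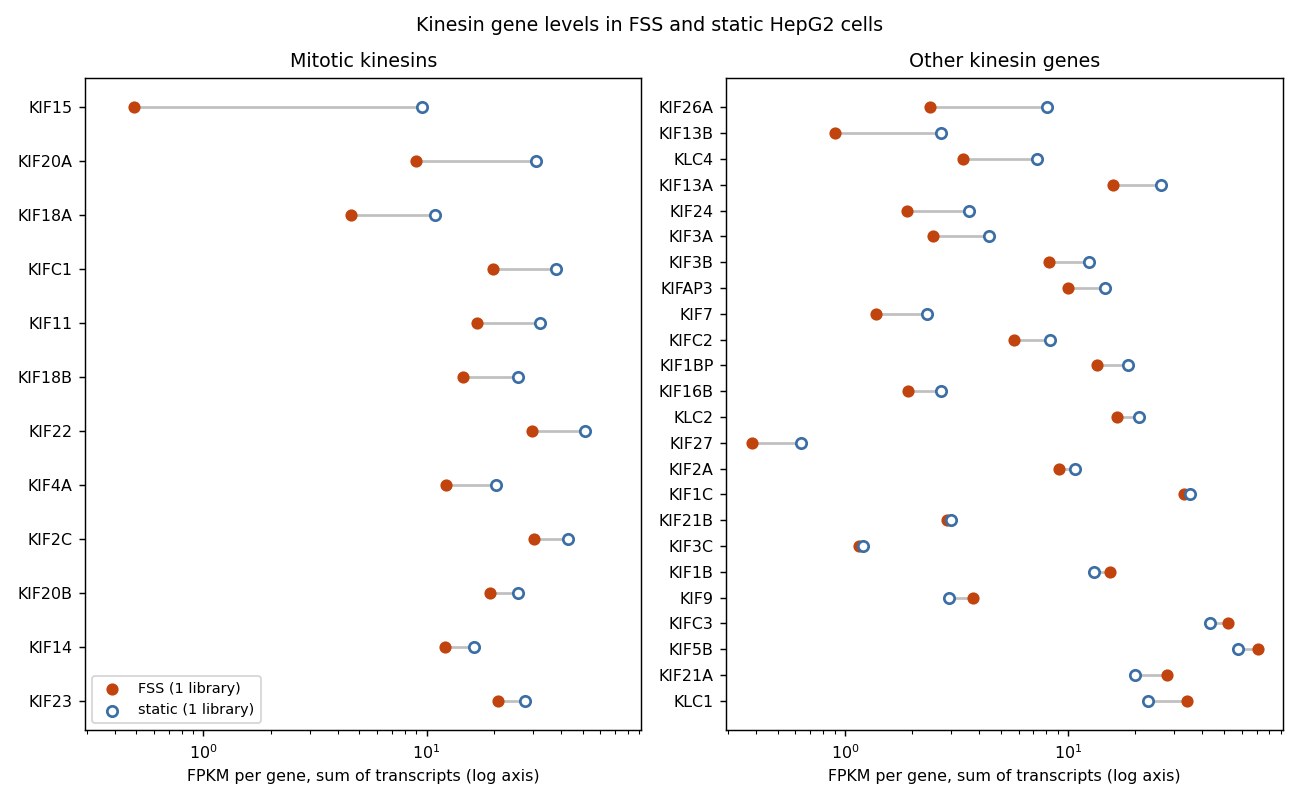
Expression of each kinesin gene in FPKM (sum of its transcripts, log axis) in the FSS library (filled) and the static library (open), 1 library each, with the 12 mitotic kinesins on the left and the 24 others on the right. All 12 mitotic kinesins lie further left in FSS, whereas 6 of the others, KLC1 and KIF5B among them, lie further right.

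Of the motors that hold the whole spindle in shape, KIF15 had the lowest ratio of all 36 genes. KIF15 (ENSG00000163808.16_3), a kinesin-12 that helps to hold the spindle poles apart, was at 0.489 FPKM in FSS and 9.55 FPKM in static cells. It was 7.09-fold lower on the FPKM + 1 scale, and its plain ratio of FSS over static was 0.0511. KIF15 had 1 listed transcript, and it was the only mitotic kinesin under 1 FPKM in FSS. KIF11, the kinesin-5 that pushes the poles apart and the target of spindle poisons such as monastrol, was at 16.8 FPKM in FSS and 32.3 FPKM in static cells, a log2 ratio of -0.91. KIFC1, a kinesin-14 that pulls poles together and clusters extra centrosomes, had the same log2 ratio of -0.91, at 19.8 FPKM in FSS and 38.1 FPKM in static cells. KIF11 and KIFC1 were thus at nearly equal ratios, whereas KIF15, which also helps to hold the poles apart, was at -2.83.

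Motors that work on chromosomes and microtubule ends had log2 ratios between -1.09 and -0.49. KIF18A, a kinesin-8 that damps the movement of chromosomes at the spindle equator, was at 4.61 FPKM in FSS and 10.9 FPKM in static cells (log2 ratio -1.09). Its relative KIF18B, which shortens astral microtubules, was at 14.6 FPKM in FSS and 25.6 FPKM in static cells (-0.77). KIF18B was also named by the study, on these samples, among positive targets of the transcriptional coactivator YAP, so its direction is no separate evidence. The chromokinesin KIF22, which binds chromosome arms, was at 29.8 FPKM in FSS and 51.4 FPKM in static cells, a log2 ratio of -0.77. KIF4A, the other chromokinesin, which also sets the length of midzone microtubules, was at 12.2 FPKM in FSS and 20.6 FPKM in static cells (-0.70). KIF4A has a near-identical intronless copy, KIF4B, which was not analysed here and could share its reads. After centring KIF18B, KIF22 and KIF4A were within 1.5-fold. KIF2C, a kinesin-13 that takes microtubules apart at faulty chromosome attachments, was at 30.2 FPKM in FSS and 42.9 FPKM in static cells, a log2 ratio of -0.49, within 1.5-fold.

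The motors of the midzone and of cytokinesis were split. KIF20A, the kinesin-6 that brings Aurora B to the midzone, was 3.19-fold lower, at 9.00 FPKM in FSS and 31.0 FPKM in static cells. Both of its transcripts above 1 FPKM were lower, KIF20A-201 at 5.91 FPKM in FSS and 23.3 FPKM in static cells, and KIF20A-205 at 3.09 FPKM in FSS and 7.64 FPKM in static cells. The remaining 3 cytokinesis motors were within 1.5-fold. KIF20B, which acts late in the separation of the daughter cells, was at 19.2 FPKM in FSS and 25.8 FPKM in static cells (-0.41). KIF23, the motor of the centralspindlin complex, was at 20.9 FPKM in FSS and 27.7 FPKM in static cells (-0.39). KIF14, which acts with citron kinase at the midbody, was at 12.1 FPKM in FSS and 16.3 FPKM in static cells (-0.40). Among the 3 members of kinesin-6 the ratio therefore ran between -1.68 for KIF20A and -0.39 for KIF23, although all 3 serve the late spindle.

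The 24 other kinesin genes were spread to both sides of 0. Of these, 6 were at least 1.5-fold lower and 0 higher, beside 29.5% lower and 10.5% higher of all genes. The remaining 18 were within 1.5-fold, and the median log2 ratio was -0.33, near the -0.25 of all genes. After centring, 3 were lower (KIF26A, KIF13B and KLC4) and 2 higher (KLC1 and KIF21A), beside 17.9% and 17.8% of all genes. The centred median of the others was -0.10. Their summed level was 335 FPKM in FSS and 342 FPKM in static cells, a ratio of 0.980. The median of the mitotic kinesins was 0.44 below that of the others on the log2 scale (-0.44), and all 12 mitotic kinesins lay below the median of the others. The classes overlapped all the same, since 11 of the 24 others had a ratio below that of KIF23, the highest among the mitotic kinesins.

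**Figure D2:**
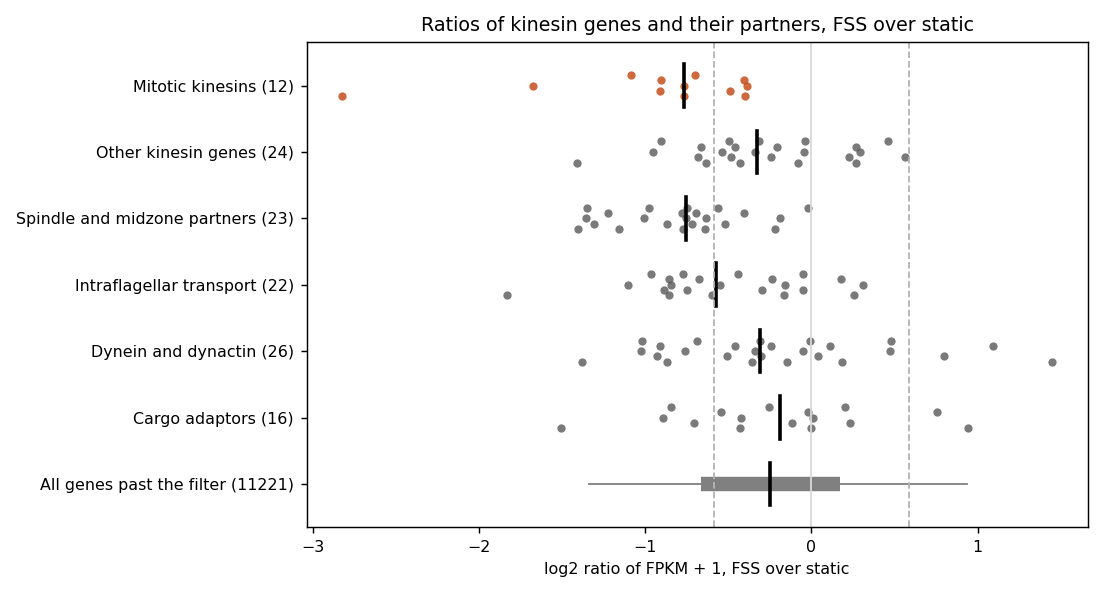
The log2 ratio of FPKM + 1, FSS over static, for each mitotic kinesin, each other kinesin gene and each gene of 4 partner lists (points, with the number of genes in brackets). Black bars are medians, dashed lines mark 1.5-fold, and the bottom row gives the median, the middle 50% (box) and the 5% to 95% range (line) of all 11221 genes. The medians of the mitotic kinesins (-0.77) and of the spindle and midzone partners (-0.75) lie left of the 1.5-fold line, and that of the other kinesin genes (-0.33) lies close to that of all genes (-0.25).

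Conventional kinesin, the main motor of long-range transport, is made of heavy chains, here KIF5B, and of light chains that bind the cargo. KIF5B was the highest of all 36 genes, at 70.7 FPKM in FSS and 57.6 FPKM in static cells, a log2 ratio of 0.29. The light chains did not share a direction. KLC1 had the highest ratio of the 36 genes, 0.56, at 34.0 FPKM in FSS and 22.7 FPKM in static cells, just within 1.5-fold. KLC2 was at 16.6 FPKM in FSS and 20.8 FPKM in static cells (-0.31). KLC4 was at 3.40 FPKM in FSS and 7.23 FPKM in static cells (-0.90). The 4 measured genes of kinesin-1 had a median log2 ratio of -0.01.

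Kinesin-2 drives transport to the tip of the cilium and carries cargo in the cytoplasm, as a heterotrimer of KIF3A, KIF3B or KIF3C and the accessory subunit KIFAP3. All 4 genes had ratios below 0, with a median of -0.52. KIF3A was at 2.49 FPKM in FSS and 4.41 FPKM in static cells (-0.63), past 1.5-fold. KIF3B was at 8.25 FPKM in FSS and 12.4 FPKM in static cells (-0.54), and KIFAP3 at 10.0 FPKM in FSS and 14.6 FPKM in static cells (-0.50), both just within it. After centring 0 of the 4 were past 1.5-fold. Of the kinesin-2 genes KIF3C alone was near 0, with a log2 ratio of -0.04 at little over 1 FPKM.

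Kinesin-3 motors carry vesicles and endosomes, and the 6 measured genes of the family, the mitotic KIF14 included, had a median log2 ratio of -0.37. KIF1C was at 33.1 FPKM in FSS and 35.2 FPKM in static cells (-0.08), and KIF1B at 15.5 FPKM in FSS and 13.1 FPKM in static cells (0.23). KIF13A, a motor of recycling endosomes, was at 15.8 FPKM in FSS and 26.0 FPKM in static cells (-0.68). KIF13B, its closest relative, was at 0.903 FPKM in FSS and 2.69 FPKM in static cells (-0.95). The lower members of this family were therefore the KIF13 pair, and the KIF1 pair stood near or above 0.

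The remaining families held few measured genes each. KIF21A, a kinesin-4 that restrains microtubule growth, was at 27.9 FPKM in FSS and 20.0 FPKM in static cells (0.46), the second highest ratio of the 36. KIF2A, a kinesin-13 that takes microtubules apart at the spindle pole, was at 9.14 FPKM in FSS and 10.7 FPKM in static cells (-0.21). KIFC3, a minus-end motor found at epithelial cell junctions, was at 52.4 FPKM in FSS and 43.3 FPKM in static cells (0.27), while KIFC2 was at 5.75 FPKM in FSS and 8.29 FPKM in static cells (-0.46). Of the 3 kinesin-14 genes, only the mitotic KIFC1 was thus past 1.5-fold. KIF26A, a kinesin-11 known from mouse to bind microtubules without motor activity, was at 2.41 FPKM in FSS and 8.04 FPKM in static cells (-1.41), the lowest ratio outside the mitotic class. KIF24, a kinesin-13 of the centriole that holds back cilium growth, was at 1.90 FPKM in FSS and 3.59 FPKM in static cells (-0.66). In all, 9 of the 24 others stayed under 5 FPKM in both libraries (KIF3A, KIF3C, KIF7, KIF9, KIF13B, KIF16B, KIF21B, KIF24 and KIF27), with levels between 0.382 and 3.74 FPKM in FSS and between 0.635 and 4.41 FPKM in static cells. Their log2 ratios lay between -0.95 and 0.27. At least 1.5-fold lower were 3 of the 9, KIF3A, KIF13B and KIF24, beside 29.5% of all genes. KIF9 lies across a gene on the opposite strand, and whether the libraries kept strand is not given in the sources used here.

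Several kinesin genes kept a similar sum while the listed transcripts exchanged places. Of the 131 kinesin transcripts, 87 reached 1 FPKM in at least 1 library, of which 17 were at least 1.5-fold higher and 34 lower. Across all 23335 transcripts at that level, 19.9% were higher and 30.8% lower. Among the 20 kinesin genes with more than 1 such transcript, 10 had both a higher and a lower form, beside 27.3% of 5950 genes in all: KIF20B, KIF22, KIF2C, KIF1BP, KLC1, KLC4, KIFC3, KIF21A, KIF1B and KIF2A. The 2 shares were not matched for the number of listed forms, of which KLC1 had 18 and KIFC3 had 12. Abundances of forms that share most of their exons are estimates, and how far that assignment of reads, rather than the RNA, differed between these libraries was not tested.

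**Figure D3:**
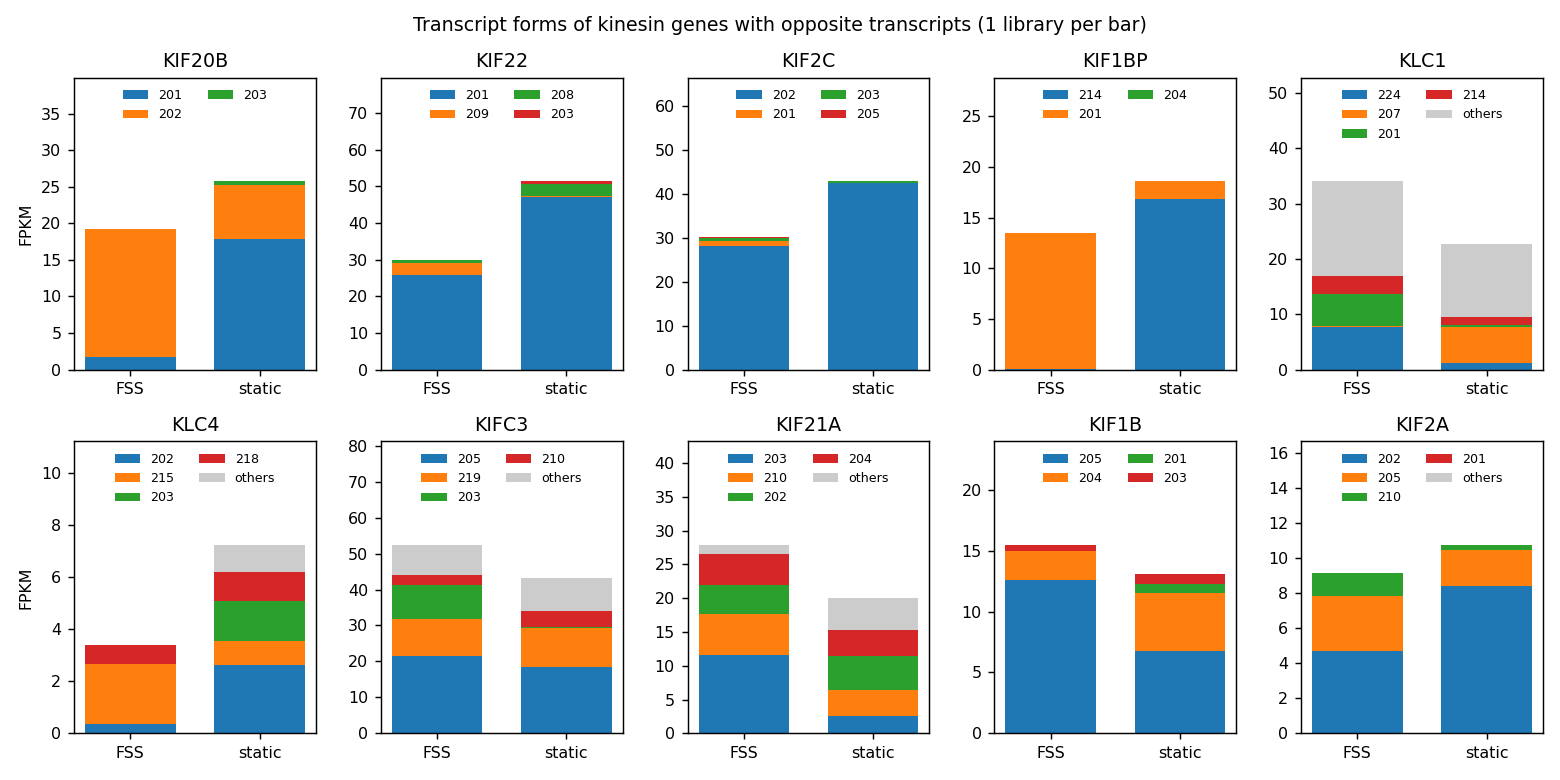
FPKM of the listed transcripts, stacked, in the FSS library (left bar) and the static library (right bar) for the 10 kinesin genes with at least 1 transcript 1.5-fold higher and 1 transcript 1.5-fold lower. Numbers in the legends are the transcript suffixes, and forms beyond the 4 most abundant are grey. In KIF20B and KIF1BP the bars differ by less than 1.5-fold while the main form changes.

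KIF20B and KIF1BP showed the clearest exchange between forms, and for KIF20B the in-frame stretch that separates the forms is printed here. KIF20B-202 was at 17.5 FPKM in FSS (90.9% of the gene) and 7.46 FPKM in static cells (28.9%). KIF20B-201 was at 1.75 FPKM in FSS (9.10%) and 17.8 FPKM in static cells (69.2%). In GENCODE 29 KIF20B-202 encodes 1820 residues and KIF20B-201 encodes 1780, and the difference is 120 bases, or 40 codons, at the start of exon 16 of 33. KIF1BP-201 was at 13.5 FPKM in FSS (99.9% of the gene) and 1.78 FPKM in static cells (9.55%). KIF1BP-214 was at 0.00815 FPKM in FSS (0.0603%) and 16.8 FPKM in static cells (90.5%). In both genes the main form of the FSS library was the minor form of the static library. The KIF20B stretch is exonic and coding on GRCh38, and no base is in capitals since the whole stretch is the difference.
KIF20B-202, chr10:89726293-89726412, plus strand: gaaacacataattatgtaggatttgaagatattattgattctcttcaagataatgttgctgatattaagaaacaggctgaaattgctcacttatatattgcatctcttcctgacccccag

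In KIF1B the balance was between forms with different tails. The short form KIF1B-205, of 1153 residues, was at 12.6 FPKM in FSS (81.2% of the gene) and 6.77 FPKM in static cells (51.8%). The long form KIF1B-204, of 1816 residues, was at 2.45 FPKM in FSS (15.8%) and 4.74 FPKM in static cells (36.2%). In mouse the short form was described as a motor of mitochondria and the long form as a motor of synaptic vesicle precursors.

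In KLC1 many forms that differ in the end of the light chain were listed. KLC1-224 was at 7.71 FPKM in FSS and 1.23 FPKM in static cells, and KLC1-201 at 5.81 FPKM in FSS and 0.257 FPKM in static cells. KLC1-207 was at 0.135 FPKM in FSS and 6.54 FPKM in static cells, 28.8% of the gene in the static library. The largest single KLC1 form thus differed between the libraries.

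In KIFC3 the main form, KIFC3-205, was at 21.4 FPKM in FSS and 18.5 FPKM in static cells, within 1.5-fold. KIFC3-203 was at 9.47 FPKM in FSS (18.1% of the gene) and 0.149 FPKM in static cells (0.344%). KIF21A-203 was at 11.6 FPKM in FSS (41.5% of the gene) and 2.63 FPKM in static cells (13.1%), and KIF21A-213 was listed at 0 in FSS and at 4.46 FPKM in static cells. KIFC3-203 and KIF21A-203 therefore held larger shares of their genes in FSS.

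Among the mitotic kinesins, the exchange in KIF22 and KIF2C was small beside the main form. KIF22-201 was at 25.7 FPKM in FSS and 47.2 FPKM in static cells, and KIF22-209, a short form of 185 residues, at 3.46 FPKM in FSS and 0.147 FPKM in static cells. KIF2C-202 was at 28.0 FPKM in FSS and 42.6 FPKM in static cells, just past 1.5-fold, and KIF2C-201 at 1.30 FPKM in FSS and listed at 0 in static cells. The main form carried the lower value in each of these genes. KIF2A-202, the main KIF2A form, was at 4.69 FPKM in FSS and 8.42 FPKM in static cells, and KIF2A-210 at 1.26 FPKM in FSS and 0.256 FPKM in static cells. At the low levels of KLC4, KLC4-215 was at 2.32 FPKM in FSS and 0.910 FPKM in static cells, and KLC4-202 at 0.347 FPKM in FSS and 2.62 FPKM in static cells.

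Promoters of genes transcribed late in the cell cycle often carry a cell cycle genes homology region (CHR) close to the start site and CCAAT boxes upstream of it, which are known sites of the MuvB complexes and of NF-Y. RefSeq promoter windows on GRCh38.p14, running 250 bases before to 50 bases after the start, were found for 29 of the 36 genes, all 12 mitotic kinesins and 17 of the others. The CHR hexamer was searched on both strands in the spelling TTTGAA and in the spelling TTTAAA, which reads the same on either strand. Other spellings of it were not searched, so the counts below hold for these spellings only. The CCAAT box was searched on both strands as CCAAT, and it could share its last base with a hexamer. The hexamer was found in 11 of the 12 mitotic kinesins and in 2 of the 17 others, KIF16B and KIF5B, against 24.0% of 35116 windows of all genes. Counting a gene once over all of its windows, 27.9% of 27305 gene symbols and 20.8% of 8786 genes past the expression filter held it. CCAAT was found in 10 of the 12 and in 5 of the 17, against 34.6% of all windows, 39.7% of symbols and 43.7% of genes past the filter. Both motifs were found in 9 of the 12 and in 1 of the 17, against 9.27% of windows, 11.2% of symbols and 8.90% of genes past the filter. In the 11 mitotic kinesins the hexamer nearest the downstream end began between 55 bases before and 30 bases after the first transcribed base (-55 to 30). A match is a description of letters and does not show that a factor binds there.

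**Figure D4:**
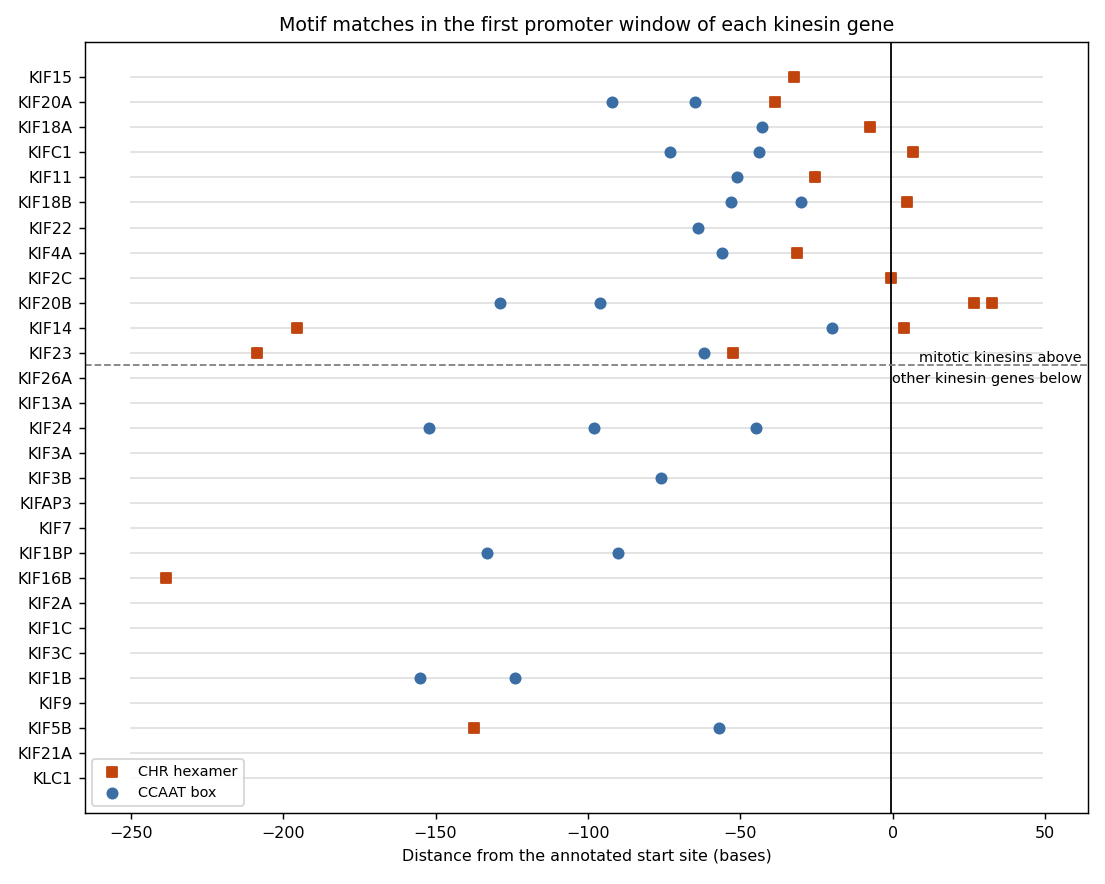
Positions of the CHR hexamer (squares) and the CCAAT box (circles) in the first RefSeq promoter window of each of 29 kinesin genes, in bases from the annotated start site (vertical line), with grey lines for the windows. Hexamers of the searched spellings appear in 11 of 12 mitotic kinesins (above the dashed line) and in 2 of 17 others (below it), KIF16B and KIF5B.

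The 100 bases before the start are printed for 6 mitotic kinesins that hold the hexamer there. Among them are KIF15, KIF20A and KIF18A with the lowest ratios and KIF23 with the highest. The same stretch is printed for KIF22, the mitotic kinesin without a searched spelling of the hexamer. Its sequence holds ttcgaa, a spelling that was not searched and is left in lower case. Capitals mark the CHR hexamer, which on the other strand reads TTCAAA in place of TTTGAA, and the CCAAT box, which on the other strand reads ATTGG. Each sequence is given in the direction of transcription, on GRCh38.p14 from RefSeq.
KIF15, chr3:44761694-44761793, plus strand: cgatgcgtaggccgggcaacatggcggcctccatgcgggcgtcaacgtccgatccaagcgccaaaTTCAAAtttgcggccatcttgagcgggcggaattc
KIF20A, chr5:138179012-138179111, plus strand: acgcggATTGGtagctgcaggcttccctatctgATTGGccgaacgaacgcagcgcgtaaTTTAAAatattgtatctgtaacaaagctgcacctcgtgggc
KIF18A, chr11:28108157-28108256, minus strand: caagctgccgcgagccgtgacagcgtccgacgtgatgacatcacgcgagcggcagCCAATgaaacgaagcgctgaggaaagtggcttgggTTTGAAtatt
KIF11, chr10:92593030-92593129, plus strand: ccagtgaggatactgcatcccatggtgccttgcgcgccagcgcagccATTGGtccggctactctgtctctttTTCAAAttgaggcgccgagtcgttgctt
KIF4A, chrX:70290004-70290103, plus strand: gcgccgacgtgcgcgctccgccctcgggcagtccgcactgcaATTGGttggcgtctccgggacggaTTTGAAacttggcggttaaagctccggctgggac
KIF23, chr15:69414249-69414348, plus strand: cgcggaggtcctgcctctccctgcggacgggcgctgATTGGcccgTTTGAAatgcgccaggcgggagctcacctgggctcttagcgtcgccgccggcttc
KIF22, chr16:29790651-29790750, plus strand: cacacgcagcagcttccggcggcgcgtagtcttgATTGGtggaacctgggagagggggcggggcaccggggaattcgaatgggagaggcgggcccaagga

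The 1 mitotic kinesin without a searched spelling of the hexamer, KIF22, had a log2 ratio of -0.77. This lay in the middle of the 12 and helped to set their median. KIF23, which held the hexamer, had a log2 ratio of -0.39. KIF15 and KIF2C lacked CCAAT, at log2 ratios of -2.83 and -0.49, the lowest of the 12 and one of the 4 within 1.5-fold.

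Transcripts of 23 spindle and midzone partners of the mitotic kinesins were measured. Of these, 17 were at least 1.5-fold lower and 0 higher, beside 29.5% lower and 10.5% higher of all genes, 6 were within 1.5-fold, and the median log2 ratio was -0.75. After centring 9 were lower and 0 higher, beside 17.9% and 17.8% of all genes. NUMA1, which anchors spindle microtubules at the poles, was at 13.1 FPKM in FSS and 36.4 FPKM in static cells. CIT, the citron kinase that KIF14 binds, was at 3.15 FPKM in FSS and 9.65 FPKM in static cells, a log2 ratio of -1.36 beside the -0.40 of KIF14. CENPF, a kinetochore protein, and PLK1, a mitotic kinase, had log2 ratios of -1.35 and -1.31. CENPF and NUF2 of this list stood with KIF18B among the YAP targets that the study chose on these samples. CENPE, a kinesin-7 that carries chromosomes to the equator and whose symbol lies outside the rule, was at 6.45 FPKM in FSS and 12.3 FPKM in static cells (-0.84). STARD9, a kinesin-like gene of the centrosome, was at 0.566 FPKM in FSS and 1.03 FPKM in static cells (-0.38).

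The intraflagellar transport proteins, cargo of the ciliary kinesin-2 of KIF3A, KIF3B and KIFAP3, had a median log2 ratio of -0.58. The 22 measured genes had a median level of 2.97 FPKM in FSS and 4.97 FPKM in static cells. All genes past the filter had medians of 7.39 FPKM in FSS and 8.98 FPKM in static cells, so unknown depth limits this list more. Of the 22, 11 were lower and 0 higher, beside 29.5% and 10.5% of all genes. After centring 7 were lower and 0 higher, beside 17.9% and 17.8%. IFT27 was at 2.24 FPKM in FSS and 10.5 FPKM in static cells, and IFT81 at 2.55 FPKM in FSS and 6.64 FPKM in static cells. IFT122 and CLUAP1 had log2 ratios of -0.97 and -0.85.

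Dynein, the motor that walks the opposite way to most kinesins, and its activator dynactin had 3 of 26 measured genes higher and 8 lower, shares near the 10.5% higher and 29.5% lower of all genes, and a median of -0.31. After centring 5 were higher and 6 lower, beside 17.8% and 17.9% of all genes. DYNC1LI1, a light intermediate chain that holds cargo adaptors, was at 33.2 FPKM in FSS and 11.5 FPKM in static cells. DCTN1, the largest dynactin subunit, was at 9.50 FPKM in FSS and 26.4 FPKM in static cells. The adaptor BICD1 and the light chain DYNLT1 had log2 ratios of 1.09 and -1.03.

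Of 16 measured cargo adaptors of the transport kinesins, KIF1BP included, 2 were higher and 4 lower, shares near the 10.5% and 29.5% of all genes, with a median of -0.19. After centring 2 were higher and 3 lower, beside 17.8% and 17.9% of all genes. RHOT1, which links mitochondria to KIF5 motors, was at 4.73 FPKM in FSS and 15.3 FPKM in static cells. SYNE2, a nuclear envelope protein that binds kinesin light chains, had a log2 ratio of -0.85. The study had listed SYNE2, on these samples, among differing genes of cell migration, so its direction is no separate evidence. KIF1BP itself was at 13.5 FPKM in FSS and 18.6 FPKM in static cells (-0.43).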

How the data were processed

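The values that the authors deposited are FPKM of each transcript. HISAT2 2.0.5, STAR 2.5.2b (role not given), StringTie, cutadapt and the build hg19 are named in the submitters' processing notes. The study's methods describe abundances from StringTie and FPKM from Ballgown, at a minimum of 0.5. FPKM divides by transcript length and library total, so a few abundant genes can lower the rest. Depth is unknown and counts were not recovered. Every value column matched a sample (0 did not). RNA selection is not given in the sources used here.

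Transcripts were summed by symbol, 36 of 36 kinesin genes passed the filter of 0.5 FPKM in at least 1 library, and log2 ratios used a pseudocount of 1. With 1 library a group no test was run. The members and lists were chosen with earlier results of these data known. All kinesin genes were named, values being given for mitotic kinesins, for genes with at least 5 FPKM and for those past 1.5-fold, and from each partner list the 4 largest absolute ratios at 5 FPKM or more, except that 2 cargo adaptors and 1 exon sequence are not reported here. KLC1, KIF21A and other forms named at transcript level, and the 6 genes with printed hexamers, were chosen after their values were seen. Transcript models came from GENCODE 29 (GRCh38), where 131 of 131 transcript names were found and 34 of 36 genes had the same version, all but KIF23 and KIFC2. Coordinates are from these references, since the expression table was made on hg19. Alternatives were a fold of 2, pseudocounts of 0.1 and 5, filtering at 5 FPKM or not at all, centring, scaling both libraries to 1000000, taking the highest transcript, and a wider mitotic class. Leaving out KIF1BP or KIF15 was added after seeing the data. Computations used pandas 2.3.3 and numpy 2.4.6 in Python 3.11.15, and figures matplotlib 3.10.9.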

Additional observations from a re-analysis of the deposited data

How the results depend on the processing

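Of 74 alternative values, 53 stayed within 0.1 (log2) of the reported median or within 1.5 times the reported count, 21 moved further and 0 medians changed sign. Counts of lower kinesin genes (14 in all, 8 mitotic, 6 other) became 8, 5 and 3 after centring, and 4, 3 and 1 at a fold of 2. Across all genes 29.5% were lower and 10.5% higher, 17.9% and 17.8% after centring, and 29.4% and 11.5% with a filter at 5 FPKM. Shares of all genes under the other settings were not computed, so those counts have no such comparison. With a pseudocount of 5 FPKM the counts in all and among the others were 8 and 1, and with a filter at 5 FPKM the others held 3. With a pseudocount of 0.1 FPKM the count was 17 in all and 9 among the others. Counts of higher kinesin genes, 0 in all and 0 among the others, became 2 and 2 after centring, 1 and 1 with libraries rescaled to a sum of 1000000, and 2 and 2 when the highest transcript stood for a gene. The median log2 ratio of the mitotic kinesins moved to -0.53 after centring. That of the others was -0.10 after centring, -0.43 after rescaling, -0.47 with a pseudocount of 0.1 FPKM and -0.18 with one of 5 FPKM. The median of the mitotic less that of the other kinesins was -0.33 with a pseudocount of 0.1 FPKM, against -0.44. KIF4B had no value for the wider mitotic class, which therefore added KIF2A, KIF24 and CENPE only. Without KIF15, 7 of the remaining mitotic kinesins were lower. Without KIF1BP the median of the others was -0.31 and the difference between the classes -0.45. No paired analysis was possible because each group has 1 library. Unknown depth limits most the genes under 5 FPKM.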
